A study of Rattus norvegicus with 30 samples.

Results

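The cell proliferation genes are 45 genes whose products start DNA synthesis, copy the genome, build the mitotic spindle or divide the cell. They were taken by gene symbol, and 44 of the 45 were found among the 22914 genes of the count table. Ccnb2 was the gene that was not matched. All 44 passed the filter on low counts, which left 15934 genes to be tested.

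Lung RNA-seq was performed on 30 libraries from male Sprague Dawley rats aged 8 weeks, with 3 libraries in each of 10 groups, to follow how severe acute pancreatitis (SAP), dexamethasone (DEX) and emodin change expression in the injured lung. All rats were fasted, anaesthetized and operated, and the lung was collected at 6 hours or at 24 hours. In Sham-6h and Sham-24h the pancreas was only turned slightly. Con-6h and Con-24h received sterile saline into the biliopancreatic duct. In SAP-6h, SAP-24h, DEX-6h, DEX-24h, Emo-6h and Emo-24h the duct was filled with 5.0% sodium taurocholate, a bile acid salt used to bring on pancreatitis. The DEX groups also received dexamethasone, a synthetic glucocorticoid, intravenously at 10 mg/kg. The Emo groups received emodin, an anthraquinone, into the stomach. The labels give the emodin dose as 10 mg/kg in the sample descriptions and as 40 mg/kg in the protocol. Drugs were scheduled 2 and 12 hours after the operation, so that rats studied at 6 hours had passed only the first of these times. Rats without DEX received saline by vein, and rats without emodin received carboxymethylcellulose by stomach tube. The libraries of a group come from separate rats per the study's methods, although the labels do not say so.

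A dividing cell first commits to S phase. Cyclin E activates its kinase, E2F factors switch on replication genes, and Cdc6 and Cdt1 load the MCM helicase on DNA. Later, Cdk1 with cyclin A and cyclin B drives entry into mitosis, the Plk1 and Aurora kinases and kinesins shape the spindle, and Cdc20 and Ube2c direct the anaphase-promoting complex to destroy the cyclins. The mRNA of most genes for mitosis rises late in the cycle and is low in resting cells, which make up most of an adult lung. The RNA came from whole lung, so that fewer dividing cells and less of these mRNAs per cell cannot be told apart.

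The total of gene counts in a library was between 16813949 and 34692306. The members took few of them: Ccne2 and Ttk had a median of 26 reads per library, and Aurkb had the highest median, 1965 reads. The variance between libraries of a group was 37.4 to 208 times that of counting (chi-square per degree of freedom). In the paper's mapping summary, every SAP, DEX and Emo library had a lower share of uniquely mapped reads than every Sham and Con library. The part of this difference in the comparisons with Sham and Con was not tested. The label of the tissue was checked on 7 marker genes of alveolar type 2 cells and 6 of type 1 cells. All were detected in every library, with summed levels of 25040 to 47780 and 1267 to 3620 FPKM (fragments per kilobase, scaled to the mapped fragments of the library).

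Levels per length spanned a wide range. Averaged over the 30 libraries, Pcna, the clamp that holds polymerases on DNA, was highest at 41.04 FPKM. It was followed by Mcm7 with 20.5 FPKM and Aurkb with 16.01 FPKM. The next, Cdk1, had 7.81 FPKM. In all, 33 members had a mean of at least 1 FPKM and 11 had less, down to 0.271 FPKM for Ccne2.

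The median change of the members from 6 to 24 hours was negative in each of the 5 treatments. The change from 6 to 24 hours was averaged over the 5 treatments in the model of all 30 libraries. This average was added after the values had been seen, because these medians had the same sign. A differentially expressed gene (DEG) was one with an adjusted p under 0.05 and a change of at least 2-fold. Of the 44 members, 26 were DEGs with lower levels at 24 hours and 0 with higher levels, against 2.61% of all genes tested that were lower DEGs (4.36% in either direction). Without the 2-fold limit, 37 members were lower (23.4% of all genes). The fold change was below 0 for 43 of 44 members, Aurkb being the exception, whereas it was below 0 for 49% of all genes. The median log2 fold change was -1.18 for the members and 0.01 for all genes tested. On the log2(FPKM + 1) scale, which understates the change of low genes, the median of the members was -0.59, and on the log2(FPKM + 0.1) scale -1.02. In single treatments the log2(FPKM + 1) medians were -0.40 in DEX to -0.80 in Con. The number of DEGs was 25 to 27 when any 1 of the 30 libraries was left out.

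**Figure D1:**
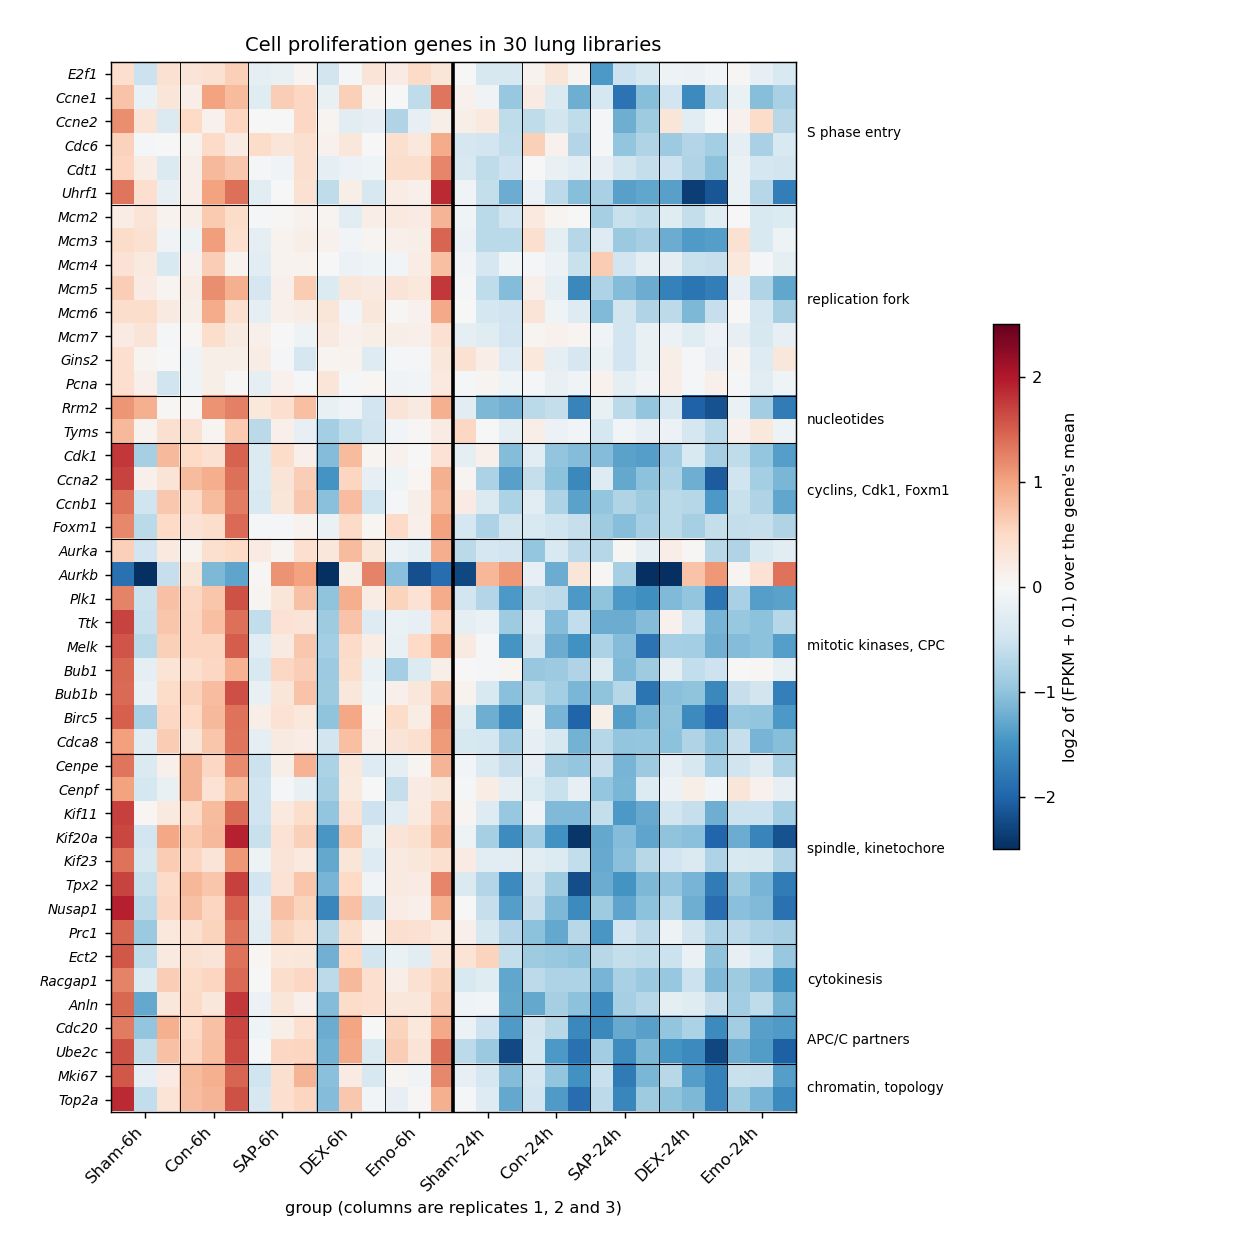
Level of each of the 44 genes (rows, grouped by role) in each of the 30 libraries (columns, 3 per group), as the log2 of FPKM + 0.1 over the gene's mean. Most rows are redder at 6 hours and bluer at 24 hours, the rows of Pcna and Gins2 differ little between the time points, Aurkb varies within groups, and replicate 2 of Sham-6h and replicate 1 of DEX-6h are blue in the genes for mitosis.

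Marker genes of other cell types also moved between the time points. The summed level of 6 endothelial markers was 1151 to 1746 FPKM (median 1340) at 6 hours and 898.1 to 1436 FPKM (median 1084) at 24 hours, and the groups did not overlap in 4 of 5 treatments. The 6 fibroblast markers had a median of 776.3 FPKM (353.6 to 919.4) at 6 hours and of 353.6 FPKM (245.9 to 610.5) at 24 hours. The 7 of 8 erythroid markers that were matched had a median of 4025 FPKM (771.6 to 9515) at 6 hours and of 1453 FPKM (297.4 to 3862) at 24 hours. The fibroblast and erythroid sums were lower on average at 24 hours in 5 of 5 treatments and did not overlap in 3.
The sums of 6 T cell markers were 28.68 to 118.5 FPKM (median 44.51) at 6 hours and 5.82 to 105.7 FPKM (median 24.01) at 24 hours. Neutrophil markers went both ways, with a median of 2772 FPKM (369.9 to 5912) at 6 hours and of 2979 FPKM (117.2 to 16410) at 24 hours. The alveolar type 2 sum had medians of 36100 and 33470 FPKM at the 2 time points. The sums of 6 heart muscle markers were 6.17 to 191.2 FPKM (median 102.7) at 6 hours and 6.18 to 177.1 FPKM (median 80.01) at 24 hours. No gene of these lists was at 0 in all libraries, but Marco, a marker of alveolar macrophages, was close to 0 at 6 hours, with group means of up to 0.03 FPKM. The part of these cell types in the change of the members was not tested.

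S phase entry was covered by 6 genes, of which 2 were DEGs and 5 were lower without the 2-fold limit (median log2 fold change -0.75). Uhrf1, which carries DNA methylation through replication, had 3.02, 1.55 and 0.96 in Sham-6h, 1.27, 2.36 and 3.09 in Con-6h, 0.91, 1.13 and 1.5 in SAP-6h, 0.69, 1.26 and 0.83 in DEX-6h and 1.29, 1.23 and 4.34 in Emo-6h (FPKM of replicates 1, 2 and 3). At 24 hours Uhrf1 had 1.05, 0.71 and 0.42 in Sham-24h, 1.01, 0.68 and 0.49 in Con-24h, 0.6, 0.38 and 0.4 in SAP-24h, 0.38, 0.14 and 0.18 in DEX-24h and 0.99, 0.65 and 0.27 in Emo-24h. It fell by 1.60 log2 units (standard error 0.241, adjusted p = 1.47e-05), and the libraries of the time points did not overlap in Con, SAP, DEX and Emo.
Ccne1, a cyclin E that starts S phase, had 1.13, 0.57 and 0.82 in Sham-6h, 0.74, 1.41 and 1.19 in Con-6h, 0.51, 1.05 and 0.98 in SAP-6h, 0.56, 1.03 and 0.69 in DEX-6h and 0.65, 0.38 and 1.79 in Emo-6h. At 24 hours Ccne1 had 0.71, 0.61 and 0.29 in Sham-24h, 0.76, 0.48 and 0.22 in Con-24h, 0.45, 0.11 and 0.26 in SAP-24h, 0.44, 0.15 and 0.36 in DEX-24h and 0.57, 0.26 and 0.33 in Emo-24h. The time points overlapped in Sham, Con and Emo, and the fall was 1.17 log2 units (standard error 0.253, adjusted p = 0.000634). Without replicate 3 of Emo-6h, the highest library, it was 0.98 and below the 2-fold limit.
Ccne2, the other cyclin E, had 0.73, 0.37 and 0.19 in Sham-6h, 0.42, 0.3 and 0.44 in Con-6h, 0.27, 0.27 and 0.43 in SAP-6h, 0.29, 0.21 and 0.22 in DEX-6h and 0.12, 0.22 and 0.31 in Emo-6h. At 24 hours Ccne2 had 0.31, 0.34 and 0.14 in Sham-24h, 0.14, 0.17 and 0.14 in Con-24h, 0.26, 0.06 and 0.1 in SAP-24h, 0.36, 0.21 and 0.26 in DEX-24h and 0.3, 0.41 and 0.13 in Emo-24h. These low values overlapped in 3 treatments, and the change of -0.50 (standard error 0.225, adjusted p = 0.0718) did not pass the test.
E2f1, an activating E2F factor, had 2.71, 1.36 and 2.65 in Sham-6h, 2.54, 2.64 and 3.08 in Con-6h, 1.7, 1.76 and 2.12 in SAP-6h, 1.43, 1.96 and 2.56 in DEX-6h and 2.34, 2.85 and 2.52 in Emo-6h. At 24 hours E2f1 had 2.0, 1.5 and 1.5 in Sham-24h, 2.16, 2.52 and 2.11 in Con-24h, 0.68, 1.36 and 1.5 in SAP-24h, 1.84, 1.8 and 1.91 in DEX-24h and 2.05, 1.74 and 1.52 in Emo-24h. Con, SAP and Emo did not overlap, and the change was small but passed the test without the 2-fold limit, at -0.38 (standard error 0.105, adjusted p = 0.00514).
Cdc6, a loader of the MCM helicase, had 1.82, 1.15 and 1.19 in Sham-6h, 1.28, 1.69 and 1.4 in Con-6h, 1.68, 1.5 and 1.61 in SAP-6h, 1.29, 1.47 and 1.21 in DEX-6h and 1.61, 1.45 and 2.35 in Emo-6h. At 24 hours Cdc6 had 0.87, 0.83 and 0.74 in Sham-24h, 1.85, 1.3 and 0.68 in Con-24h, 1.17, 0.55 and 0.67 in SAP-24h, 0.59, 0.68 and 0.62 in DEX-24h and 1.0, 0.64 and 0.89 in Emo-24h. Only Con overlapped among the 5 treatments, and the change was -0.79 (standard error 0.137, adjusted p = 6.68e-05).
Cdt1, its partner in loading, had 3.82, 2.96 and 2.0 in Sham-6h, 2.93, 4.62 and 4.24 in Con-6h, 2.51, 2.44 and 3.46 in SAP-6h, 2.18, 2.33 and 2.4 in DEX-6h and 3.55, 3.55 and 6.23 in Emo-6h. At 24 hours Cdt1 had 1.99, 1.64 and 1.78 in Sham-24h, 2.64, 2.28 and 2.16 in Con-24h, 2.26, 1.88 and 1.7 in SAP-24h, 1.77, 1.5 and 1.23 in DEX-24h and 2.3, 1.9 and 1.87 in Emo-24h. Every library at 24 hours lay below every library at 6 hours of the same treatment, in all 5 treatments, with a change of -0.71 (standard error 0.105, adjusted p = 1.17e-05).

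The replication fork was the group of roles that moved least, with a median log2 fold change of -0.42. Of its 8 genes, 1 was a DEG and 5 were lower without the 2-fold limit. The DEG was Mcm5, a subunit of the ring-shaped MCM helicase. Mcm5 had 4.49, 3.36 and 3.06 in Sham-6h, 3.33, 6.57 and 5.42 in Con-6h, 2.15, 3.16 and 4.53 in SAP-6h, 2.28, 3.53 and 3.42 in DEX-6h and 3.67, 3.5 and 10.16 in Emo-6h. At 24 hours Mcm5 had 2.81, 1.84 and 1.32 in Sham-24h, 3.18, 2.43 and 0.88 in Con-24h, 1.66, 1.32 and 1.17 in SAP-24h, 0.83, 0.75 and 0.81 in DEX-24h and 2.49, 1.68 and 1.12 in Emo-24h. The time points did not overlap in any of the 5 treatments, and the fall was 1.37 log2 units (standard error 0.19, adjusted p = 6e-06).
Mcm2, another subunit, had 6.92, 7.6 and 6.47 in Sham-6h, 6.84, 9.54 and 8.36 in Con-6h, 5.89, 6.15 and 6.52 in SAP-6h, 6.34, 5.01 and 6.79 in DEX-6h and 7.22, 6.98 and 10.94 in Emo-6h. At 24 hours Mcm2 had 5.64, 3.76 and 4.28 in Sham-24h, 7.19, 6.38 and 6.13 in Con-24h, 3.35, 4.07 and 3.88 in SAP-24h, 4.88, 3.94 and 4.87 in DEX-24h and 6.08, 4.65 and 4.72 in Emo-24h. The change of -0.53 (standard error 0.071, adjusted p = 4.51e-06) was smaller than 2-fold, and Con was the treatment whose time points overlapped.
Mcm3 had 6.37, 6.05 and 4.31 in Sham-6h, 4.18, 9.63 and 6.17 in Con-6h, 3.91, 4.9 and 5.13 in SAP-6h, 4.99, 4.35 and 4.83 in DEX-6h and 5.0, 5.12 and 12.71 in Emo-6h. At 24 hours Mcm3 had 4.17, 2.85 and 2.85 in Sham-24h, 6.1, 3.9 and 2.76 in Con-24h, 3.66, 2.36 and 2.54 in SAP-24h, 1.89, 1.67 and 1.72 in DEX-24h and 6.04, 3.52 and 4.18 in Emo-24h. Sham, SAP and DEX did not overlap, and the change was -0.82 (standard error 0.148, adjusted p = 0.000105).
Of the other subunits, Mcm6 was at -0.74 (adjusted p = 1.2e-05) and Mcm7 at -0.32 (adjusted p = 5.12e-05), whereas Mcm4, at -0.26 (adjusted p = 0.0698), did not pass. The subunits form 1 ring of 6 different proteins, and their log2 fold changes ran from -1.37 to -0.26.
Pcna had 55.05, 44.87 and 28.95 in Sham-6h, 38.15, 45.28 and 41.88 in Con-6h, 35.16, 44.21 and 40.47 in SAP-6h, 50.93, 39.78 and 42.45 in DEX-6h and 38.66, 39.37 and 48.84 in Emo-6h. At 24 hours Pcna had 40.38, 42.77 and 38.05 in Sham-24h, 39.55, 35.99 and 38.41 in Con-24h, 44.35, 35.26 and 38.79 in SAP-24h, 46.22, 40.23 and 45.02 in DEX-24h and 39.99, 34.31 and 37.95 in Emo-24h. The time points overlapped in every treatment, and the log2 fold change was -0.06 (standard error 0.0711, adjusted p = 0.54). Gins2, a subunit of the GINS complex that travels with the helicase, also overlapped in every treatment, at -0.07 (adjusted p = 0.586).

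The 2 genes of nucleotide supply parted. Rrm2, the regulated subunit of ribonucleotide reductase, had 11.82, 10.09 and 5.56 in Sham-6h, 5.66, 12.04 and 13.21 in Con-6h, 6.52, 7.31 and 9.28 in SAP-6h, 4.8, 5.11 and 3.85 in DEX-6h and 6.85, 6.36 and 10.18 in Emo-6h. At 24 hours Rrm2 had 4.51, 2.44 and 2.32 in Sham-24h, 3.38, 3.58 and 1.64 in Con-24h, 4.75, 3.35 and 2.69 in SAP-24h, 4.11, 1.27 and 1.12 in DEX-24h and 4.86, 2.92 and 1.55 in Emo-24h. It fell by 1.35 log2 units (standard error 0.204, adjusted p = 1.46e-05), and DEX was the treatment that overlapped.
Tyms, thymidylate synthase, had 3.64, 2.17 and 2.72 in Sham-6h, 2.7, 2.15 and 3.27 in Con-6h, 1.24, 2.23 and 1.75 in SAP-6h, 1.09, 1.28 and 1.41 in DEX-6h and 1.95, 2.07 and 2.38 in Emo-6h. At 24 hours Tyms had 2.97, 2.01 and 1.74 in Sham-24h, 2.31, 1.84 and 1.94 in Con-24h, 1.47, 1.93 and 1.76 in SAP-24h, 1.84, 1.5 and 1.24 in DEX-24h and 2.2, 2.46 and 1.87 in Emo-24h. Its time points overlapped in every treatment, and the log2 fold change was -0.07 (standard error 0.104, adjusted p = 0.615).

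All 4 genes of the mitotic cyclins, their kinase and their regulator were DEGs, with a median log2 fold change of -1.20. Cdk1, the kinase of mitotic entry, had 26.77, 4.36 and 13.76 in Sham-6h, 11.11, 10.13 and 21.96 in Con-6h, 6.13, 10.72 and 8.54 in SAP-6h, 3.61, 13.65 and 8.19 in DEX-6h and 8.46, 7.88 and 10.09 in Emo-6h. At 24 hours Cdk1 had 6.59, 8.55 and 3.65 in Sham-24h, 6.46, 3.88 and 3.65 in Con-24h, 3.61, 3.03 and 2.95 in SAP-24h, 4.3, 6.0 and 4.37 in DEX-24h and 5.01, 3.94 and 2.93 in Emo-24h. The time points did not overlap in Con, SAP and Emo, and the fall was 1.22 log2 units (standard error 0.216, adjusted p = 8.55e-05).
Ccna2, cyclin A, had 3.94, 1.27 and 1.48 in Sham-6h, 2.09, 2.28 and 3.16 in Con-6h, 0.9, 1.47 and 1.84 in SAP-6h, 0.35, 1.73 and 1.0 in DEX-6h and 1.07, 1.21 and 2.22 in Emo-6h. At 24 hours Ccna2 had 1.23, 0.63 and 0.39 in Sham-24h, 0.73, 0.52 and 0.31 in Con-24h, 0.91, 0.42 and 0.52 in SAP-24h, 0.64, 0.44 and 0.2 in DEX-24h and 0.79, 0.6 and 0.47 in Emo-24h. It fell by 1.48 log2 units (standard error 0.247, adjusted p = 4.55e-05), with no overlap in Sham, Con and Emo.
Ccnb1, cyclin B, had 7.35, 1.96 and 4.57 in Sham-6h, 3.96, 4.97 and 6.94 in Con-6h, 2.14, 3.52 and 4.57 in SAP-6h, 1.31, 4.85 and 1.98 in DEX-6h and 2.76, 3.14 and 5.07 in Emo-6h. At 24 hours Ccnb1 had 3.27, 2.16 and 1.59 in Sham-24h, 2.31, 1.6 and 1.06 in Con-24h, 1.38, 1.63 and 1.48 in SAP-24h, 1.72, 1.69 and 0.98 in DEX-24h and 1.88, 1.63 and 1.08 in Emo-24h. The fall was 1.17 log2 units (standard error 0.205, adjusted p = 7.51e-05), with no overlap in Con, SAP and Emo.
Foxm1, a transcription factor of genes for mitosis, had 2.78, 0.69 and 1.67 in Sham-6h, 1.5, 1.6 and 3.24 in Con-6h, 1.13, 1.13 and 1.23 in SAP-6h, 1.01, 1.64 and 1.19 in DEX-6h and 1.64, 1.27 and 2.4 in Emo-6h. At 24 hours Foxm1 had 0.82, 0.63 and 0.81 in Sham-24h, 0.86, 0.79 and 0.74 in Con-24h, 0.58, 0.5 and 0.6 in SAP-24h, 0.68, 0.6 and 0.73 in DEX-24h and 0.73, 0.74 and 0.64 in Emo-24h. Its 24-hour levels lay close together, at no more than 0.86 FPKM, only Sham overlapped, and the fall was 1.15 log2 units (standard error 0.156, adjusted p = 4.39e-06).

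Of the 9 mitotic kinases and members of the chromosomal passenger complex, 6 were DEGs and 8 were lower without the 2-fold limit (median log2 fold change -1.49). Plk1, the polo-like kinase of mitotic entry and exit, had 7.65, 2.16 and 5.35 in Sham-6h, 4.59, 5.21 and 9.79 in Con-6h, 3.35, 3.97 and 5.36 in SAP-6h, 1.53, 6.05 and 3.64 in DEX-6h and 4.76, 4.12 and 6.15 in Emo-6h. At 24 hours Plk1 had 2.25, 1.89 and 1.11 in Sham-24h, 2.08, 2.0 and 1.12 in Con-24h, 1.55, 1.11 and 1.04 in SAP-24h, 1.43, 1.56 and 0.84 in DEX-24h and 1.77, 1.17 and 1.21 in Emo-24h. The fall was 1.70 log2 units (standard error 0.202, adjusted p = 1.14e-06), and the overlap in Sham and DEX came from replicate 2 of Sham-6h and replicate 1 of DEX-6h, which were low.
Birc5, or survivin, a subunit of the passenger complex, had 14.12, 2.79 and 7.1 in Sham-6h, 7.02, 8.79 and 12.84 in Con-6h, 5.58, 6.39 and 5.92 in SAP-6h, 2.4, 9.78 and 5.11 in DEX-6h and 6.78, 5.65 and 11.18 in Emo-6h. At 24 hours Birc5 had 3.98, 2.05 and 1.54 in Sham-24h, 4.5, 2.15 and 1.16 in Con-24h, 5.44, 1.85 and 2.17 in SAP-24h, 2.41, 1.57 and 1.17 in DEX-24h and 2.51, 2.45 and 1.77 in Emo-24h. It fell by 1.57 log2 units (standard error 0.256, adjusted p = 3.51e-05), with no overlap in Con, SAP and Emo.
Cdca8, or borealin, of the same complex, ranged from 3.48 to 12.4 FPKM at 6 hours and from 2.06 to 4.16 FPKM at 24 hours. It fell by 1.23 log2 units (standard error 0.154, adjusted p = 2.04e-06), and the time points did not overlap in any of the 5 treatments.
Melk, at -1.62 (adjusted p = 3.02e-05), the checkpoint kinase gene Bub1b, at -1.53 (adjusted p = 7.64e-06), and the spindle checkpoint kinase gene Ttk, at -1.49 (adjusted p = 0.000127), were the other DEGs. Melk ranged from 0.36 to 2.37 FPKM at 6 hours and from 0.13 to 0.87 FPKM at 24 hours, and Bub1b was the gene of these 3 that did not overlap in 4 treatments. Aurka, the Aurora kinase of the spindle poles, at -0.70 (adjusted p = 0.000235), and Bub1, at -0.71 (adjusted p = 0.00231), were lower by less than 2-fold.

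Aurkb, the catalytic Aurora kinase of the passenger complex, had no common direction with time. Aurkb had 4.35, 2.05 and 10.64 in Sham-6h, 19.69, 7.29 and 6.38 in Con-6h, 16.42, 35.06 and 32.33 in SAP-6h, 1.99, 17.82 and 37.92 in DEX-6h and 7.72, 3.4 and 4.23 in Emo-6h. At 24 hours Aurkb had 3.25, 28.68 and 33.93 in Sham-24h, 13.79, 6.72 and 19.65 in Con-24h, 16.37, 8.98 and 2.11 in SAP-24h, 1.26, 26.19 and 33.94 in DEX-24h and 16.69, 20.48 and 41.09 in Emo-24h. All SAP-24h libraries lay below all SAP-6h libraries and all Emo-24h libraries above all Emo-6h libraries, and the other 3 treatments overlapped. Low and high libraries stood side by side within groups, as in DEX-24h, and the whole range of 1.26 to 41.09 FPKM was 32.6-fold. The log2 fold change with time was 0.65 (standard error 0.433, adjusted p = 0.222), with the largest standard error of the 44 members. Some marker sums also spread within groups, as those of heart muscle in DEX-24h (14.9 to 102.3 FPKM) and of neutrophils in Sham-24h (198.3 to 9335 FPKM). The cause of the spread of Aurkb was not tested.

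Among the 8 spindle and kinetochore genes, 6 were DEGs and 7 were lower without the 2-fold limit (median log2 fold change -1.20). Kif20a, a kinesin of the central spindle, had 7.02, 1.49 and 4.26 in Sham-6h, 3.39, 3.81 and 8.36 in Con-6h, 1.41, 2.74 and 3.26 in SAP-6h, 0.71, 3.42 and 1.86 in DEX-6h and 2.7, 2.82 and 3.81 in Emo-6h. At 24 hours Kif20a had 1.95, 1.15 and 0.65 in Sham-24h, 1.12, 0.68 and 0.31 in Con-24h, 0.82, 0.95 and 0.79 in SAP-24h, 1.01, 0.98 and 0.46 in DEX-24h and 0.84, 0.61 and 0.39 in Emo-24h. It fell by 1.94 log2 units (standard error 0.257, adjusted p = 3.65e-06), and only Sham and DEX overlapped.
Tpx2, which activates Aurora A on microtubules, had 7.56, 1.53 and 3.21 in Sham-6h, 4.14, 3.74 and 7.68 in Con-6h, 1.62, 2.98 and 3.76 in SAP-6h, 0.97, 3.25 and 2.13 in DEX-6h and 2.68, 2.66 and 5.48 in Emo-6h. At 24 hours Tpx2 had 1.76, 1.34 and 0.69 in Sham-24h, 1.64, 1.18 and 0.41 in Con-24h, 0.91, 0.75 and 1.0 in SAP-24h, 1.11, 0.97 and 0.61 in DEX-24h and 1.15, 0.96 and 0.61 in Emo-24h. The fall was 1.74 log2 units (standard error 0.245, adjusted p = 6.87e-06), with no overlap in Con, SAP and Emo.
Kif11, the kinesin that pushes the spindle poles apart, had 2.55, 0.74 and 0.87 in Sham-6h, 1.03, 1.31 and 2.06 in Con-6h, 0.48, 0.86 and 1.01 in SAP-6h, 0.31, 0.94 and 0.47 in DEX-6h and 0.57, 0.86 and 1.2 in Emo-6h. At 24 hours Kif11 had 0.75, 0.55 and 0.32 in Sham-24h, 0.67, 0.28 and 0.28 in Con-24h, 0.44, 0.2 and 0.24 in SAP-24h, 0.49, 0.45 and 0.25 in DEX-24h and 0.46, 0.46 and 0.35 in Emo-24h. It fell by 1.20 log2 units (standard error 0.227, adjusted p = 0.000158), also with no overlap in Con, SAP and Emo.
The microtubule-binding gene Nusap1, at -1.69 (adjusted p = 3.51e-05), the kinetochore kinesin gene Cenpe, at -1.19 (adjusted p = 0.000211), and Prc1, which bundles the central spindle, at -1.06 (adjusted p = 5.93e-05), were DEGs as well. Each of these 3 overlapped in Sham and DEX only, and Prc1, the most abundant, ranged from 3.29 to 17.56 FPKM at 6 hours and from 2.24 to 6.91 FPKM at 24 hours. Without replicate 1 of Sham-6h or replicate 3 of Con-6h, Prc1 was at -0.91 or -0.98 and below the 2-fold limit. Kif23 was lower by less than 2-fold, at -0.82 (adjusted p = 0.000162). Cenpf, a large kinetochore protein, was at -0.38 (adjusted p = 0.0563) and did not pass.

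Of the 3 cytokinesis genes, 2 were DEGs. Racgap1, which sets the cleavage plane with Ect2, had 9.49, 3.08 and 6.1 in Sham-6h, 5.48, 5.79 and 10.65 in Con-6h, 3.93, 5.4 and 5.71 in SAP-6h, 2.45, 6.99 and 5.31 in DEX-6h and 4.4, 5.18 and 5.81 in Emo-6h. At 24 hours Racgap1 had 3.02, 3.19 and 1.55 in Sham-24h, 2.45, 2.27 and 2.28 in Con-24h, 1.71, 2.21 and 2.01 in SAP-24h, 1.98, 2.68 and 1.79 in DEX-24h and 2.08, 1.81 and 1.33 in Emo-24h. It fell by 1.38 log2 units (standard error 0.162, adjusted p = 9.64e-07), with no overlap in Con, SAP and Emo. Anln, the scaffold of the contractile ring, was at -1.39 (adjusted p = 0.000166), and Ect2 at -0.96 (adjusted p = 0.00305), just short of 2-fold.

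The 2 partners of the anaphase-promoting complex had the lowest median of the groups of roles, at -1.81, and both were DEGs. Ube2c, its ubiquitin-conjugating enzyme, had 8.51, 1.79 and 4.65 in Sham-6h, 4.02, 4.68 and 8.78 in Con-6h, 2.7, 4.0 and 4.04 in SAP-6h, 1.15, 5.36 and 2.13 in DEX-6h and 4.27, 3.45 and 7.27 in Emo-6h. At 24 hours Ube2c had 1.71, 1.4 and 0.5 in Sham-24h, 2.0, 0.95 and 0.68 in Con-24h, 1.45, 0.86 and 1.2 in SAP-24h, 0.91, 0.84 and 0.49 in DEX-24h and 1.1, 0.98 and 0.59 in Emo-24h. The fall of 2.04 log2 units (standard error 0.257, adjusted p = 2.02e-06) was the largest of the 44 members, and no treatment overlapped.
Cdc20, its activator, had 16.76, 3.37 and 12.57 in Sham-6h, 9.59, 11.31 and 21.64 in Con-6h, 6.2, 7.48 and 9.08 in SAP-6h, 2.8, 13.35 and 6.82 in DEX-6h and 10.0, 8.09 and 13.01 in Emo-6h. At 24 hours Cdc20 had 6.1, 4.69 and 2.45 in Sham-24h, 4.88, 4.15 and 2.13 in Con-24h, 2.15, 2.76 and 2.57 in SAP-24h, 3.33, 3.87 and 2.17 in DEX-24h and 3.65, 2.56 and 2.45 in Emo-24h. It fell by 1.57 log2 units (standard error 0.225, adjusted p = 8.72e-06), with no overlap in Con, SAP and Emo.

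Both genes of chromatin and DNA topology were DEGs. Mki67, whose product Ki-67 is a common stain for dividing cells, had 3.8, 1.04 and 1.43 in Sham-6h, 2.18, 2.33 and 3.53 in Con-6h, 0.83, 1.65 and 2.29 in SAP-6h, 0.54, 1.42 and 0.9 in DEX-6h and 1.28, 1.15 and 2.95 in Emo-6h. At 24 hours Mki67 had 1.05, 0.89 and 0.52 in Sham-24h, 0.89, 0.57 and 0.36 in Con-24h, 0.8, 0.29 and 0.5 in SAP-24h, 0.72, 0.41 and 0.31 in DEX-24h and 0.8, 0.78 and 0.41 in Emo-24h. The fall was 1.47 log2 units (standard error 0.237, adjusted p = 3.11e-05), with no overlap in Con, SAP and Emo.
Top2a, the topoisomerase that untangles chromosomes, had 8.4, 1.44 and 2.87 in Sham-6h, 3.88, 4.15 and 6.98 in Con-6h, 1.68, 3.03 and 3.31 in SAP-6h, 1.0, 3.64 and 2.13 in DEX-6h and 1.93, 2.28 and 4.22 in Emo-6h. At 24 hours Top2a had 2.17, 1.78 and 0.86 in Sham-24h, 1.58, 0.78 and 0.53 in Con-24h, 1.39, 0.66 and 1.17 in SAP-24h, 1.06, 0.98 and 0.63 in DEX-24h and 1.17, 0.95 and 0.68 in Emo-24h. It fell by 1.57 log2 units (standard error 0.247, adjusted p = 2.28e-05), with no overlap in the same 3 treatments.

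**Figure D2:**
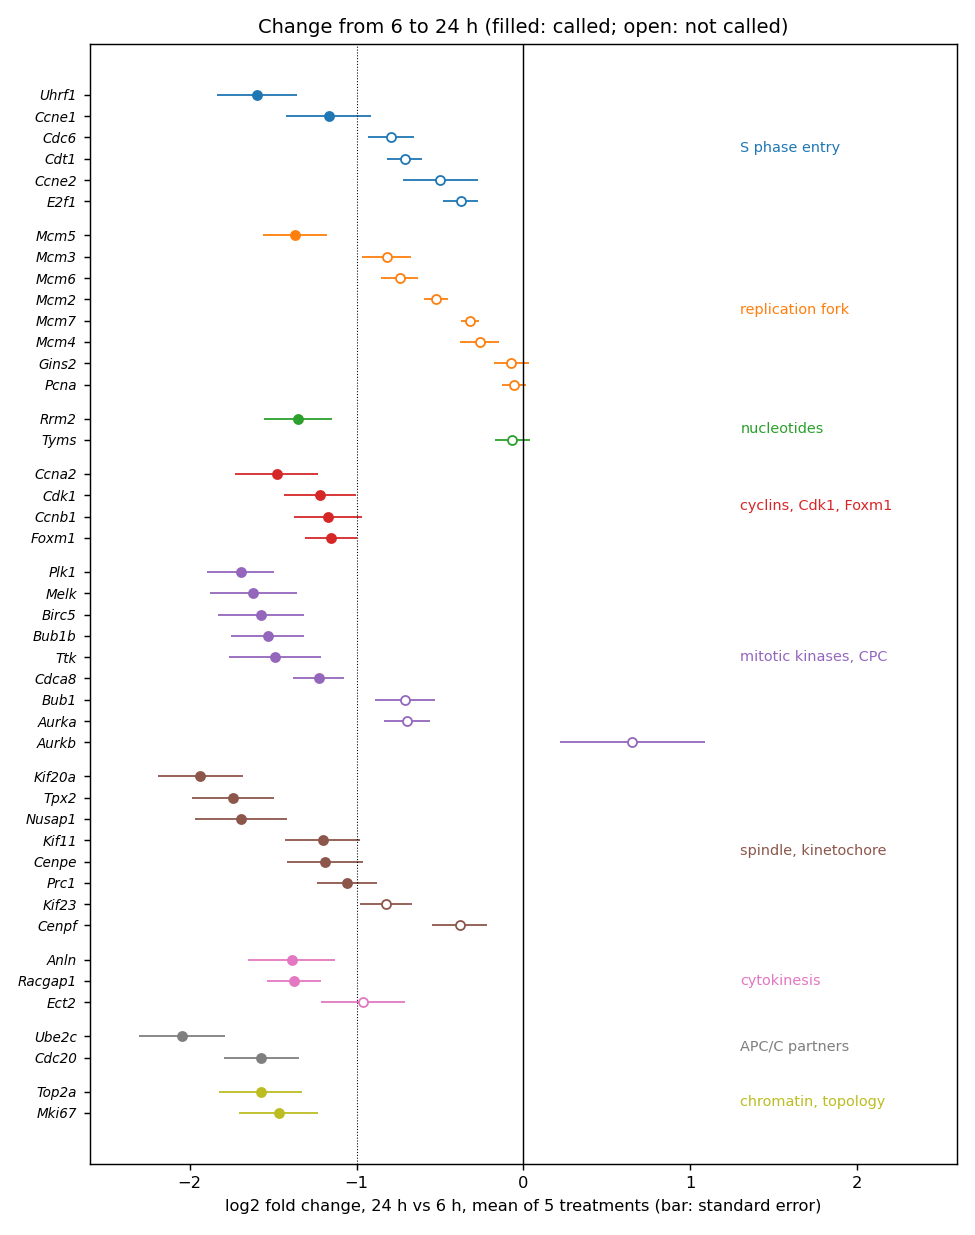
Log2 fold change of each gene from 6 to 24 hours, averaged over the 5 treatments, with its standard error and grouped by role. Filled points are DEGs. They run from -1.06 to -2.05, whereas Pcna, Gins2 and Tyms lie close to 0 and Aurkb lies at 0.65.

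The promoters of the members were read from RefSeq's rat assembly GRCr8, as 250 bases before to 50 bases after each start of transcription. The coordinates belong to that build and not to the Ensembl build of the deposited tables. Of the 44 members, 33 were matched by symbol. The other 11 were Rrm2, Ube2c, Ccne2, Aurkb, Racgap1, E2f1, Cdc6, Ccna2, Tpx2, Mcm4 and Foxm1. Each promoter was searched on both strands for the cell cycle homology region (CHR, TTTGAA), for the CCAAT box (CCAAT) and for E2F-type letters (TTTCCCGC, TTTCGCGC, TTTGCCGC or TTTGGCGC).
Matches for the CHR were in 15 of 22 promoters (68.2%) of genes for mitosis and cytokinesis, in 1 of 11 (9.09%) of the S phase genes, and in 19.4% of 27457 genes in the table. E2F-type matches were in 1 of 22 (4.55%), in 8 of 11 (72.7%) and in 2.37%, respectively. The CCAAT box was in 17 of 22 (77.3%), in 7 of 11 (63.6%) and in 39.6%. A match is a description of the letters and not of a bound site.

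**Figure D3:**
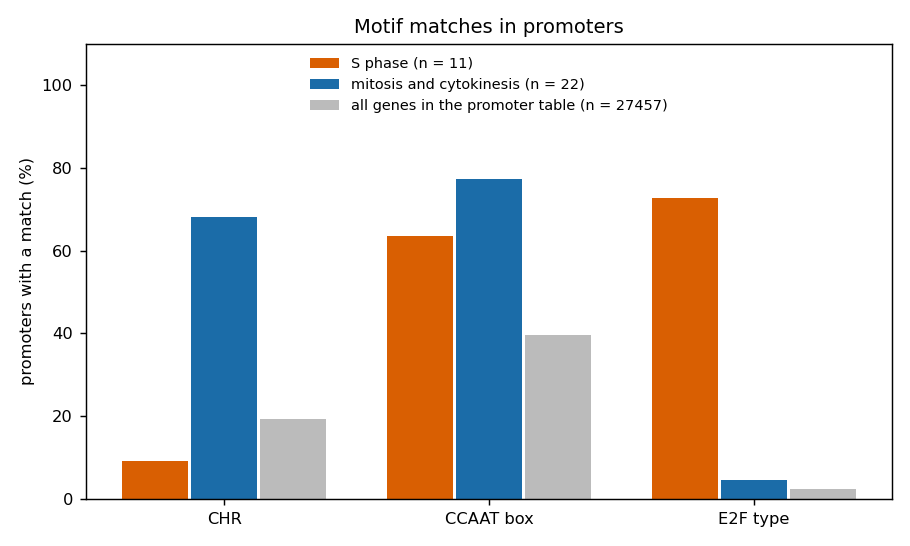
Share of promoters (in %) with at least 1 match for each motif, in 11 S phase genes, 22 genes for mitosis and cytokinesis and all 27457 genes of the promoter table. The CHR was found in 68.2% of the promoters of mitosis genes, and E2F-type letters in 72.7% of those of S phase genes.

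Shown here, in capitals for the letters found, are 3 genes whose time points did not overlap in any treatment (Cdca8, Mcm5 and Cdt1). Also shown are 2 other mitosis genes that were DEGs (Top2a and Cdk1) and Pcna, which was not a DEG over time. The mitosis promoters shown all hold a CHR, which was in 15 of 22 mitosis promoters. The Cdca8 promoter (chr5:142483150-142483449, minus strand) has a CHR that begins 94 bases before the start and shares a base with 1 of 4 CCAAT boxes. That of Top2a (chr10:84473044-84473343, minus strand) has a CHR 22 bases before the start and 4 CCAAT boxes, which begin 239, 201, 161 and 57 bases before it. That of Cdk1 (chr20:19265043-19265342, plus strand) has CHRs 72 and 16 bases before the start, 3 CCAAT boxes at 210, 81 and 49 bases, and is the 1 mitosis promoter with E2F-type letters, 133 bases before it. That of Mcm5 (chr19:13488563-13488862, plus strand) has no CHR and has E2F-type letters 213, 209 and 8 bases before the start, the first 2 of which overlap on opposite strands, and 3 CCAAT boxes. That of Cdt1 (chr19:67528999-67529298, plus strand) has them 7 and 32 bases after the start and holds neither CHR nor CCAAT box. That of Pcna (chr3:139955771-139956070, minus strand) holds a CCAAT box 168 bases before the start and no match for the other letters.
Cdca8: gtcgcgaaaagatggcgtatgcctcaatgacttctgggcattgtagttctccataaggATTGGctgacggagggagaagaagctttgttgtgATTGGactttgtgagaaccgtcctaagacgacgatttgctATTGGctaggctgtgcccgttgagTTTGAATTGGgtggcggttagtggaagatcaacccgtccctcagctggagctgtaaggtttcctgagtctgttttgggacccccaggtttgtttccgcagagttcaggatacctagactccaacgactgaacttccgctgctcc
Top2a: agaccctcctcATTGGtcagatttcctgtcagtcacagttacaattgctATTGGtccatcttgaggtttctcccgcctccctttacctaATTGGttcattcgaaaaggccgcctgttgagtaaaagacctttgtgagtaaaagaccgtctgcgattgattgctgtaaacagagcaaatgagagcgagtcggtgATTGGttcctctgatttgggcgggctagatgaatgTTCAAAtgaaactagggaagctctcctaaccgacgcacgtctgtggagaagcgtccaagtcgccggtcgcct
Cdk1: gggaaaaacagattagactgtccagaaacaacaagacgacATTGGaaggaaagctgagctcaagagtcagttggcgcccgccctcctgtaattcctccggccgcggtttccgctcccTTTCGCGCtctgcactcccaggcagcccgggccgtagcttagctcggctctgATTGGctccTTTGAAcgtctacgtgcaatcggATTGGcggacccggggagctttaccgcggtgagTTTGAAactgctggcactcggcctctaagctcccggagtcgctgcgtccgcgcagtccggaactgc
Mcm5: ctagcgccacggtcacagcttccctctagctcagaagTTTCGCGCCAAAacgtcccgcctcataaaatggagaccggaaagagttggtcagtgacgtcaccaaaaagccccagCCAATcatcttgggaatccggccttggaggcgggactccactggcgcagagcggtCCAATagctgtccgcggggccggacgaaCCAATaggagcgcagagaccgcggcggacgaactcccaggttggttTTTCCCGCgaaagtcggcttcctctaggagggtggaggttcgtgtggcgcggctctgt
Cdt1: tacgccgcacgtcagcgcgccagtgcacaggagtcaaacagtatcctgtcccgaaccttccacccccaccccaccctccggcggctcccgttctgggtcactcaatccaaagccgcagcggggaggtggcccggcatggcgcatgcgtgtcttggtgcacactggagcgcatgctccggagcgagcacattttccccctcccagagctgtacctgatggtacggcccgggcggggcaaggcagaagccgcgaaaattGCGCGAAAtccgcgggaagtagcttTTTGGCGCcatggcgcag
Pcna: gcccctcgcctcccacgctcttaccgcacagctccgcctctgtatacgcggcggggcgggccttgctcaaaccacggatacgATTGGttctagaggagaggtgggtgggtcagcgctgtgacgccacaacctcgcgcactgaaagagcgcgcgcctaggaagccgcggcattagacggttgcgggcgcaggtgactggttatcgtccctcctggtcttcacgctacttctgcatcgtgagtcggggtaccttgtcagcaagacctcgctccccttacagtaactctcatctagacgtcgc

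Single treatments were then compared between the time points. In Emo-24h vs Emo-6h, 22 of 44 members were DEGs, all lower, against 3.08% of all genes lower (9.41% in either direction). They were led by Ube2c, at -2.55 (standard error 0.585, adjusted p = 0.00205), Kif20a, at -2.39 (standard error 0.587, adjusted p = 0.00341), and Tpx2, at -2.05 (standard error 0.553, adjusted p = 0.0066). In FPKM, 33 members were lower without overlap, against 21.4% of all genes, and Aurkb was higher without overlap (26.2% of all genes). The median log2 fold change was -1.26 (0.04 for all genes). The number of DEGs was 10 without replicate 3 of Emo-6h, the library with the highest S phase genes, and 13 without replicate 3 of Emo-24h. The summed level of the 6 endothelial markers did not overlap either, with 1223 to 1746 FPKM in Emo-6h and 898.1 to 1084 FPKM in Emo-24h. Nor did those of the erythroid markers (3003 to 7354 and 297.4 to 1351 FPKM) and the fibroblast markers (776.3 to 896.6 and 338.7 to 571.1 FPKM). Alveolar type 1 (2593 to 2937 and 1676 to 2499 FPKM) and platelet markers (67.83 to 144.7 and 33.31 to 62.25 FPKM) were also lower without overlap, and neutrophil markers were higher without overlap (1633 to 3924 and 4366 to 6698 FPKM). Their part in the change was not tested.

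In DEX-24h vs DEX-6h, 9 members were DEGs, all lower, against 3.91% of all genes (7.14% in either direction). Uhrf1, at -1.97 (standard error 0.558, adjusted p = 0.0129), Ube2c, at -1.93 (standard error 0.576, adjusted p = 0.017), and Mcm5, at -1.92 (standard error 0.436, adjusted p = 0.00308), had the largest changes. In FPKM, 15 members were lower without overlap, against 21.6% of all genes, and the median log2 fold change was -0.90 (0.00 for all genes). Replicate 1 of DEX-6h was the lowest of its group for 28 of 28 genes for mitosis and cytokinesis, and for 6 of the 16 S phase genes. Without it 14 members were DEGs, without replicate 2 of DEX-6h 3, and without replicate 3 of DEX-24h 4. Without replicate 2 of DEX-6h the median was -0.52, with 33 members below 0. Markers were lower without overlap at 24 hours for B cells (33.35 to 60.95 and 5.44 to 12.19 FPKM at 6 and 24 hours), T cells (28.68 to 42.35 and 5.82 to 12.73 FPKM) and natural killer cells (20.62 to 27.38 and 4.45 to 19.1 FPKM). So were those of endothelium, fibroblasts and platelets, and their part in the change was not tested.

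In SAP-24h vs SAP-6h, 2 members were DEGs, both lower (1.74% of all genes lower, 2.42% in either direction). Plk1 was at -1.66 (standard error 0.454, adjusted p = 0.0335) and Racgap1 at -1.24 (standard error 0.361, adjusted p = 0.0425). With any 1 of the 6 libraries left out, 0 or 1 member was a DEG, and the adjusted p of Plk1 and Racgap1 was 0.0507 to 0.12. DESeq2 called 9 members (3.87% of all genes). In FPKM, 36 of 44 members were lower without overlap, against 17.8% of all genes, and the median was -1.07 (0.02 for all genes). Markers of T cells (42.29 to 53.17 and 11.68 to 15.82 FPKM at 6 and 24 hours), natural killer cells (48.24 to 58.83 and 15.57 to 23.2 FPKM) and erythroid cells (6265 to 9515 and 1186 to 2171 FPKM) were lower without overlap at 24 hours, as were those of B cells, endothelium and fibroblasts. Those of neutrophils (2030 to 4535 and 4599 to 16410 FPKM) and granulocyte precursors (23.11 to 31.63 and 42.99 to 62.11 FPKM) were higher. Their part in the change was not tested.

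In Con-24h vs Con-6h, edgeR called 0 members (0% of all genes lower, 0.00628% in either direction), whereas 32 were lower at an unadjusted p under 0.05 (5.8% of all genes) and DESeq2 called 22 (0.691%). In FPKM, 34 members were lower without overlap, against 9.38% of all genes, and the median of -1.59 (-0.01 for all genes) was the lowest of the 5 treatments. In Sham-24h vs Sham-6h, edgeR called 0 members (0.0126% of all genes lower, 0.257% in either direction), 30 were lower at an unadjusted p (9.34% of all genes) and DESeq2 called 10 (1.23%). Only 11 members were lower without overlap, against 11.6% of all genes, and the median was -1.03 (0.01 for all genes). Without replicate 1 of Sham-6h the median was -0.55, with 39 members below 0. Replicate 2 of Sham-6h was the lowest of its group for 28 of 28 mitosis and cytokinesis genes, but for 4 of the 16 S phase genes. Without it, 2 members were called. Marker sums that were lower without overlap at 24 hours were those of erythroid cells, macrophages and granulocyte precursors in Con and that of endothelial cells in Sham.

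**Figure D4:**
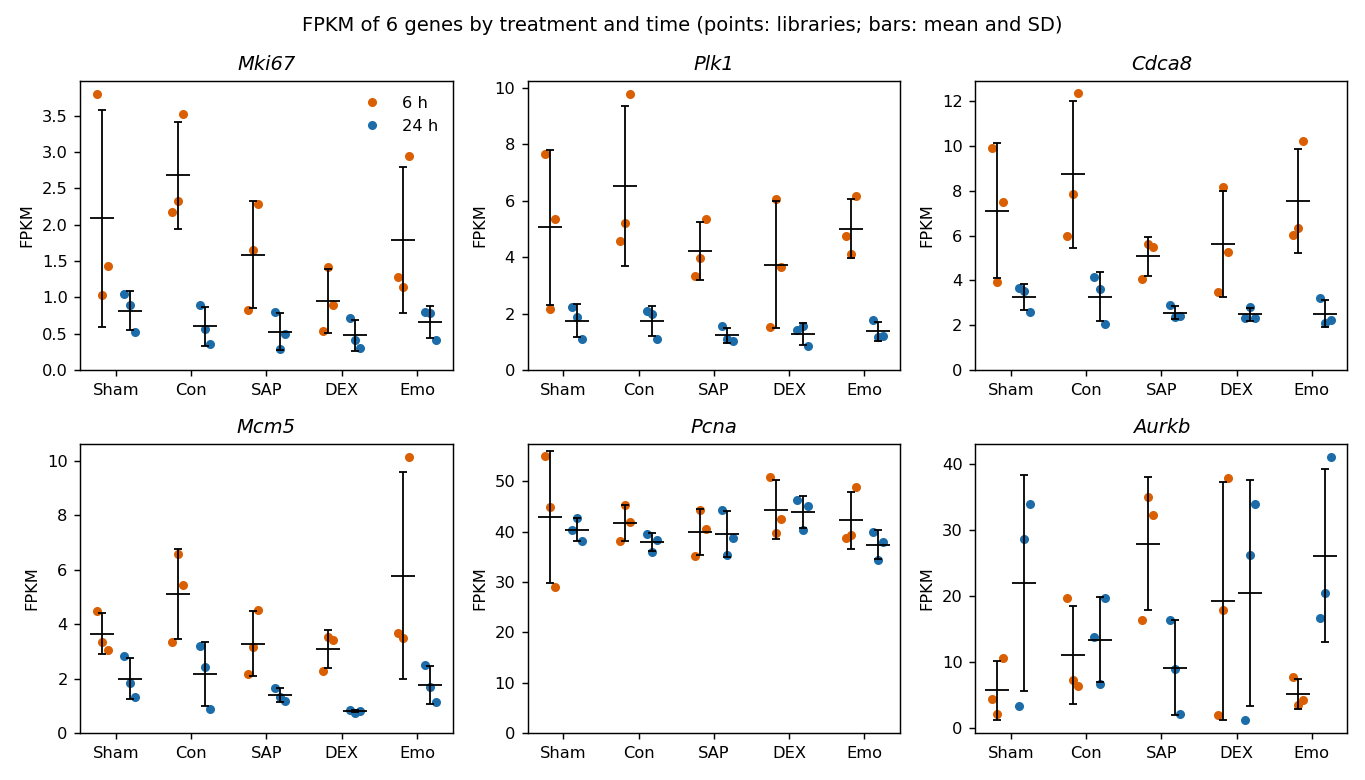
FPKM of Mki67, Plk1, Cdca8, Mcm5, Pcna and Aurkb in each library (points), with the mean and SD of the 3 libraries per group (bars), at 6 hours (orange) and 24 hours (blue). Cdca8 and Mcm5 separate the time points in all 5 treatments, Pcna stays between 28.95 and 55.05 FPKM, and Aurkb scatters within groups.

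Whether the fall with time differed between treatments was tested by interaction terms for 3 pairs. For SAP against Sham, edgeR called 0 of 44 members (0.0314% of all genes), and Aurkb was the 1 member at an unadjusted p under 0.05 (12.6% of all genes), at -3.43 (adjusted p = 0.309). For DEX against SAP it called 0 (0.138% of all genes), with 0 at an unadjusted p (13.6%), and for Emo against SAP 0 (1.68% of all genes), with 4 at an unadjusted p (23.4%). The 4 were Aurkb, Bub1, Cdt1 and Mcm7, at 3.78, 1.31, -0.77 and -0.40 on the log2 scale, with adjusted p-values of 0.11 to 0.168. DESeq2 called 0 members in each. For these 3 pairs, 0 members passed the test of a difference in the fall, so the numbers of DEGs in single treatments are not read as a difference between treatments. Other pairs of treatments were not tested.

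Within a time point, few members passed a test between treatments. The 16 comparisons share their groups and are not independent. Those of SAP, DEX or Emo groups with Sham or Con also differ in the share of uniquely mapped reads, whose part was not tested. In 14 of the 16 comparisons edgeR called 0 of 44 members. The first share in brackets is that of all genes called, and the second that of all genes at an unadjusted p under 0.05. At that p, SAP-6h vs Sham-6h (0.22% and 13.1%) had Tyms, which was lower, and Aurkb, which was higher. SAP-24h vs Sham-24h (5% and 28.4%) had Cenpf and Kif23, both lower. SAP-6h vs Con-6h (0.163% and 10.4%) had 6 members, and SAP-24h vs Con-24h (6.91% and 35.1%) had E2f1, Mcm2 and Mcm6, all lower. Sham-6h vs Con-6h (0% and 8.61%) had 0. Sham-24h vs Con-24h (1% and 27%) had Cdc6, Mcm2 and Mcm7, which were lower, and Bub1 and Ect2, which were higher.
For the drugs, DEX-6h vs SAP-6h (0.515% and 12.1%) had 0 members at an unadjusted p. DEX-24h vs SAP-24h (3.73% and 23.1%) had Mcm3 and Mcm4, which were lower, and E2f1 and Cenpf, which were higher. Emo-6h vs SAP-6h (0.0251% and 13.5%) had Aurkb, which was lower, and Mcm2, Cdt1 and Mcm3, which were higher. Emo-24h vs SAP-24h (3.19% and 26.3%) had Cenpf, which was higher. DEX-24h vs Sham-24h (4.15% and 19.9%) had Uhrf1, Mcm5, Mcm3 and Tyms, all lower. Emo-6h vs Sham-6h (0.477% and 22.6%) had Bub1, which was lower, and Cdt1, which was higher. Emo-24h vs Sham-24h (0% and 3%) had 0, and Emo-6h vs DEX-6h (1.41% and 17.3%) had 6, all higher. DESeq2 called 0 members in these 14 comparisons, apart from 1 in Sham-24h vs Con-24h (1.44% of all genes by DESeq2) and 2 in DEX-24h vs Sham-24h (5.03%). Over the 14 it called 0% to 7.31% of all genes.

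**Figure D5:**
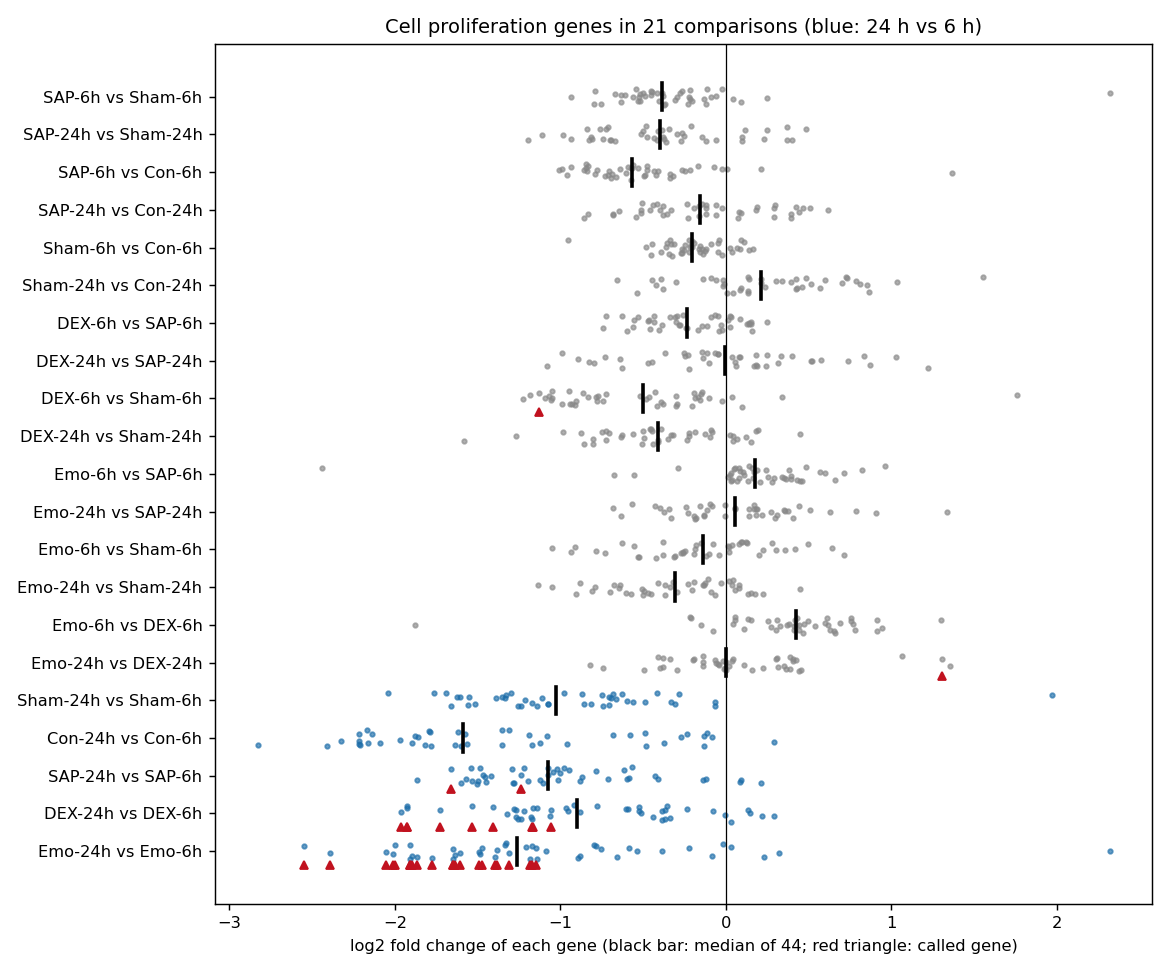
Log2 fold change of each of the 44 genes (points) in the 21 comparisons, with the median (black bar) and the DEGs (red triangles). The medians lie between -0.57 and 0.43 in the 16 comparisons of treatments (grey) and between -1.59 and -0.90 in the 5 comparisons of time (blue).

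The medians of the members lay below 0 in SAP against Sham and Con without a DEG, and leaving out single libraries moved them. They also lay below 0 in the drug-treated groups against Sham, as given after those of SAP. All these groups had a lower share of uniquely mapped reads than Sham and Con, and its part in the medians was not tested. In SAP-6h vs Sham-6h the median log2 fold change was -0.38 (-0.02 for all genes), but 0.13 without replicate 1 of Sham-6h (28 members above 0 and 16 below) and -0.71 without replicate 2 of Sham-6h. In SAP-6h vs Con-6h it was -0.57 (-0.01 for all genes), with 41 of 44 members below 0 (51.8% of all genes), and -0.305 without replicate 3 of Con-6h, when 40 were below 0. There, 14 members were lower without overlap, against 13.7% of all genes. At 24 hours the median was -0.40 against Sham (-0.03 for all genes) -0.15 without replicate 1 of Sham-24h and -0.61 without replicate 3. Against Con it was -0.15 (-0.01 for all genes) and, with 1 library left out, from -0.33 without replicate 1 of SAP-24h to 0.008 without replicate 1 of Con-24h.
For the drugs at 6 hours, the median was 0.18 in Emo-6h vs SAP-6h, with 40 of 44 members above 0 (49.4% of all genes). Without replicate 3 of Emo-6h it was -0.01, with 22 members above 0, and without replicate 1 and replicate 3 of SAP-6h it was 0.075 and 0.35. In DEX-6h vs SAP-6h it was -0.24, with 32 members below 0 (53.1% of all genes), 0.02 without replicate 1 of DEX-6h, -0.535 without replicate 2 of DEX-6h and -0.05 without replicate 3 of SAP-6h. In Emo-6h vs DEX-6h it was 0.43, with 39 members above 0 (51.4% of all genes), 0.17 and 0.80 without replicates 1 and 2 of DEX-6h, and 0.15 without replicate 3 of Emo-6h. At 24 hours it was 0.06 in Emo-24h vs SAP-24h and -0.003 in DEX-24h vs SAP-24h, and with 1 library left out it ran from -0.13 to 0.23 and from -0.08 to 0.13.
Against Sham, the median was -0.50 in DEX-6h (-0.04 for all genes), and it ran from -0.99 (replicate 2 of DEX-6h left out) to -0.07 (replicate 1 of Sham-6h left out). In Emo-6h it was -0.135 (-0.01 for all genes), and it ran from -0.51 (replicate 2 of Sham-6h left out) to 0.39 (replicate 1 left out). At 24 hours it was -0.41 in DEX (-0.01 for all genes) and -0.31 in Emo (-0.01 for all genes), and it ran from -0.52 to -0.18 and from -0.51 to -0.14, in both cases with replicate 3 or 1 of Sham-24h left out. In Sham-6h vs Con-6h the median was -0.20 (-0.001 for all genes), with 0.10 when replicate 3 of Con-6h was left out, and 0.09 and -0.70 when replicate 2 or 1 of Sham-6h was. In Sham-24h vs Con-24h it was 0.21 (0.02 for all genes), from 0.03 without replicate 1 of Sham-24h to 0.52 without replicate 1 of Con-24h. These comparisons share their Sham libraries. In Emo-24h vs DEX-24h the median ran from -0.13 to 0.08 with 1 library left out.
Markers of other cell types differed in the comparisons with SAP as well. In SAP-24h against Sham-24h, the summed levels were lower without overlap for T cells (11.68 to 15.82 against 41.14 to 59.6 FPKM), natural killer cells (15.57 to 23.2 against 38.52 to 54.39 FPKM) and fibroblasts (252.8 to 353.6 against 476.6 to 610.5 FPKM). In SAP-6h against Sham-6h, those of erythroid cells (6265 to 9515 against 773.3 to 3638 FPKM) and endothelial cells (1253 to 1661 against 1234 to 1247 FPKM) were higher without overlap. In SAP-6h against Con-6h, those of granulocyte precursors (23.11 to 31.63 against 9.26 to 19.85 FPKM) and platelets (101.2 to 309.8 against 42.29 to 94.36 FPKM) were higher without overlap. In DEX-6h, natural killer cell markers (20.62 to 27.38 FPKM) lay below those of SAP-6h (48.24 to 58.83 FPKM) and Emo-6h (52.46 to 221.3 FPKM). Macrophage and monocyte markers (112.7 to 182 against 199.3 to 254.6 FPKM) and erythroid markers (771.6 to 6189 against 6265 to 9515 FPKM) were also lower without overlap in DEX-6h than in SAP-6h. In DEX-24h against Sham-24h, marker sums were lower without overlap for T cells (5.82 to 12.73 against 41.14 to 59.6 FPKM), B cells (5.44 to 12.19 against 21.14 to 49.93 FPKM), natural killer cells (4.45 to 19.1 against 38.52 to 54.39 FPKM), fibroblasts (245.9 to 332.4 against 476.6 to 610.5 FPKM) and macrophages and monocytes (104.7 to 163.5 against 171.3 to 174.3 FPKM). No marker sum was without overlap in Emo-6h or Emo-24h against Sham. At 24 hours, markers of granulocyte precursors were lower in both drug groups than in SAP without overlap, and those of B cells were lower in DEX and higher in Emo. Against SAP-24h, DEX-24h also had lower neutrophil (1032 to 2979 against 4599 to 16410 FPKM) and higher endothelial markers (1086 to 1327 against 954.5 to 1027 FPKM). Their part in the values of the members was not tested.

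The DEG of DEX-6h vs Sham-6h (3.97% of all genes called) was Tyms. All 3 DEX-6h libraries, at 1.09 to 1.41 FPKM, lay below all 3 Sham-6h libraries, at 2.17 to 3.64 FPKM (16.2% of all genes were lower without overlap). The log2 fold change was -1.13 (standard error 0.236, adjusted p = 0.00424). It was -0.92 and below the 2-fold limit without replicate 1 of Sham-6h, and the adjusted p was 0.063 in a model of these 6 libraries alone. The number of DEGs was 4 without replicate 2 of DEX-6h and 2 without replicate 2 of Sham-6h. DESeq2 also called Tyms. Natural killer cell markers were lower without overlap in DEX-6h (20.62 to 27.38 against 39.6 to 137.8 FPKM), and endothelial (1427 to 1639 against 1234 to 1247 FPKM) and platelet markers (111.1 to 232.2 against 43.51 to 110 FPKM) were higher, and their part was not tested. Against SAP-6h, Tyms in DEX-6h was at -0.46 (adjusted p = 0.453).
The DEG of Emo-24h vs DEX-24h (5.06% of all genes called) was Mcm3, with 3.52 to 6.04 FPKM in Emo-24h and 1.67 to 1.89 FPKM in DEX-24h, so that the groups did not overlap (18.6% of all genes were higher without overlap). The log2 fold change was 1.31 (standard error 0.337, adjusted p = 0.0167), and the adjusted p was 0.0627 to 0.0996 without replicate 2 or 3 of DEX-24h or replicate 1 of Emo-24h. The markers of B cells (37.97 to 66.79 against 5.44 to 12.19 FPKM), T cells (15.18 to 58.14 against 5.82 to 12.73 FPKM), fibroblasts (338.7 to 571.1 against 245.9 to 332.4 FPKM) and neutrophils (4366 to 6698 against 1032 to 2979 FPKM) were also higher without overlap in Emo-24h. Those of endothelial and erythroid cells were lower without overlap, and the part of these cells was not tested. In the same comparison, Uhrf1 was at 1.35 (adjusted p = 0.144) and Mcm5 at 1.06 (adjusted p = 0.138), which did not pass.
Without the 2-fold limit, more members passed in 3 comparisons (10% of all genes lower in SAP-24h vs Con-24h, 4.21% lower in Sham-24h vs Con-24h and 1.67% higher in Emo-6h vs DEX-6h). Mcm2 was lower in SAP-24h than in Con-24h, at -0.68 (adjusted p = 0.00466), and in Sham-24h than in Con-24h, at -0.54 (adjusted p = 0.0356). E2f1 was lower in SAP-24h than in Con-24h, at -0.83 (adjusted p = 0.015), Mcm7 was lower in Sham-24h than in Con-24h, at -0.42 (adjusted p = 0.0312), and Cdt1 was higher in Emo-6h than in DEX-6h, at 0.94 (adjusted p = 0.0293). In SAP-24h against Con-24h, marker sums were lower without overlap for T cells (11.68 to 15.82 against 24.01 to 105.7 FPKM), endothelium (954.5 to 1027 against 1235 to 1436 FPKM) and alveolar type 1 cells (1267 to 2545 against 2640 to 3542 FPKM). They were higher for neutrophils (4599 to 16410 against 117.2 to 1006 FPKM) and granulocyte precursors (42.99 to 62.11 against 4 to 5.43 FPKM). In Sham-24h against Con-24h, they were lower without overlap for endothelium (954.1 to 1201 against 1235 to 1436 FPKM) and alveolar type 2 cells (25040 to 35280 against 38300 to 43190 FPKM), and higher for macrophages and monocytes (171.3 to 174.3 against 159.1 to 165.5 FPKM) and granulocyte precursors (5.92 to 56 against 4 to 5.43 FPKM). Their part in these differences was not tested.

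The libraries of Sham-6h and DEX-6h stood furthest apart in the genes for mitosis. In Sham-6h, replicate 1 was highest for 27 of 28 genes for mitosis and cytokinesis. Without Aurkb, their summed level was 184.9, 43.23 and 101.2 FPKM in replicates 1, 2 and 3. The sum of the 16 S phase genes was 137.7, 119.6 and 88.31 FPKM, so that replicate 2, the lowest for mitosis, was not the lowest for S phase. In DEX-6h the sums were 35.53, 111.0 and 66.85 FPKM for mitosis without Aurkb (37.52, 128.9 and 104.8 FPKM with it) and 111.5, 98.49 and 103.1 FPKM for S phase. In Con-6h, replicate 3 was highest for 26 of 28 mitosis genes, and in Emo-6h replicate 3 was highest for 26 of 28 mitosis genes and for 15 of 16 S phase genes.

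The other genes of the cell cycle were read from 6 further lists. Of 37 other mitosis genes tested, 21 were DEGs from 6 to 24 hours in the average of the 5 treatments, all lower (2.61% of all genes lower), and the median log2 fold change was -1.08. The largest changes, close to equal, were those of Kif14, a kinesin of cytokinesis, at -2.174 (standard error 0.363, adjusted p = 4.47e-05), and Kif18b, at -2.165 (standard error 0.271). The level of Kif14 was near 0, with group means of 0.0133 to 0.133 FPKM. Of 29 other DNA replication genes, 3 were lower DEGs (median -0.39), led by Dtl, which marks Cdt1 for destruction, at -1.41 (standard error 0.245, adjusted p = 7.11e-05). Of 14 genes in the RB and E2F list, which also holds the MYB family gene Mybl2, 3 were lower DEGs (median -0.07). They were E2f7 at -1.84 (standard error 0.329, adjusted p = 9.16e-05), Mybl2 at -1.55 (adjusted p = 5.17e-06) and E2f8 at -1.48 (adjusted p = 2.14e-05). The 7 CDK inhibitors (median -0.42), 13 G1 cyclins, kinases and drivers (median -0.20) and 15 antiproliferative and quiescence genes (median 0.00) held 0 DEGs by edgeR. At an unadjusted p under 0.05 (54.3% of all genes, 26.5% lower), 2 genes of the CDK inhibitor list were higher and 4 lower. Of the latter, Cdkn3, at -0.94, encodes a phosphatase that acts on CDKs. In the G1 list 0 genes were higher and 9 lower, Cdc25b and Cdc25c among them. Of the antiproliferative genes, 3 were higher and 3 lower.

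In the average of the 5 treatments, the 13 genes of the G1 list all changed by less than 2-fold. The list also holds Cdc25c, at -0.80 (adjusted p = 0.000108), and Cdc25b, at -0.46 (adjusted p = 0.00116). These encode phosphatases of mitotic entry, and Cdc25c had the largest change of the list. Among 3 named after their values were seen, the D cyclin Ccnd3 was lower, at -0.60 (adjusted p = 3.29e-07), as were Cks1b, at -0.59 (adjusted p = 0.000142), and Skp2, at -0.54 (adjusted p = 0.000816), which act together to destroy a CDK inhibitor. Ccnd1 was at -0.002 (adjusted p = 0.991), Ccnd2 at -0.02 (adjusted p = 0.881), Myc at -0.04 (adjusted p = 0.864) and Btg2 at -0.004 (adjusted p = 0.979), and these 4 did not pass. Cdkn1a, which encodes the CDK inhibitor p21, was lower by less than 2-fold, at -0.55 (adjusted p = 0.0286). In single treatments it was a DEG over time in Emo, with means of 125.0 FPKM at 6 hours and 44.66 FPKM at 24 hours, at -1.505 (adjusted p = 0.015), and without 1 library the change was -2.43 to -1.21 and the call was lost in 3 of 6 fits (replicate 1 or 2 of Emo-24h or replicate 3 of Emo-6h left out). In SAP it was at 0.37 (adjusted p = 0.647), with means of 111.8 and 134.1 FPKM, and the interaction of Emo against SAP with time was -1.87 (adjusted p = 0.0862), which did not pass. In DEX the mean of Cdkn1a also fell, from 294.4 FPKM (242.65 to 362.29) to 145.9 FPKM (126.26 to 166.19). Of the CDK inhibitors, 0 were lower DEGs over time in DEX and 1 was a higher DEG. The interaction of DEX against SAP with time was -1.37 for Cdkn1a (adjusted p = 0.357) and did not pass either. Cdkn1a, Ccnd1 and Myc were DEGs in some comparisons of treatments, and Ccnd2 and Btg2 were in none. Other genes of the lists were called as well, for example at 24 hours. Of 15 antiproliferative genes, 2 were higher DEGs in SAP-24h vs Sham-24h, 3 in SAP-24h vs Con-24h, and 0 were lower. In Emo-24h vs SAP-24h, 2 were lower and 0 higher. In SAP-24h vs Sham-24h, 2 other mitosis genes were lower DEGs, and 1 replication gene was called in each direction. The shares of all genes called are given above for these comparisons.
An average over treatments can hide changes of opposite sign. In the interaction of Emo against SAP with time (1.68% of all genes called), 5 genes of these lists were called, and they were named after their values were seen. Myc was at -1.69 (adjusted p = 0.0448), with a mean of 20.47 FPKM at 6 hours and 34.41 FPKM at 24 hours in SAP and of 22.91 and 13.6 FPKM in Emo. Ccnd3 was at -1.05 (adjusted p = 0.0174), with a change over time of -1.18 in Emo (adjusted p = 1.93e-05) and of -0.13 in SAP (adjusted p = 0.603). The stress response genes Gadd45g and Gadd45b were at -2.26 (adjusted p = 0.0442) and -1.01 (adjusted p = 0.0258), and Gmnn, which encodes the Cdt1 inhibitor geminin, at 1.38 (adjusted p = 0.022). With each of the 12 libraries left out in turn, Myc, Gadd45g and Gadd45b lost the call in 7 fits each, Ccnd3 in 4 and Gmnn in 3. Without replicate 1 of SAP-24h, Myc was at -0.75 and Gadd45g at -1.08. In the interactions of SAP against Sham and of DEX against SAP, 0 genes of these lists were called (0.0314% and 0.138% of all genes). At an unadjusted p under 0.05, 5 were higher and 3 lower in the former (12.6% of all genes in either direction), and 6 were higher and 11 lower in the latter (13.6%). The 5 genes called for Emo had the same signs in the interaction of DEX against SAP, which shares the SAP libraries. There, Gadd45g was at -2.59 (adjusted p = 0.0786), Myc at -0.99 (adjusted p = 0.351) and Ccnd3 at -0.77 (adjusted p = 0.101). Gadd45b was at -0.47 (adjusted p = 0.373) and Gmnn at 0.92 (adjusted p = 0.172).
Cdkn1a was higher in DEX-6h (242.7 to 362.3 FPKM) than in Sham-6h (48.32 to 103.5 FPKM), without overlap and at 2.03 (standard error 0.469, adjusted p = 0.00866). SAP-6h, with 85.7 to 130.5 FPKM, also lay below DEX-6h without overlap. Yet 0 CDK inhibitors were DEGs in DEX-6h vs SAP-6h, so that Cdkn1a did not pass there. In Emo-24h Cdkn1a had 23.13 to 84.27 FPKM, below SAP-24h with 111.8 to 168.1 FPKM and DEX-24h with 126.3 to 166.2 FPKM. The log2 fold changes were -1.72 (adjusted p = 0.0262) and -1.74 (adjusted p = 0.0204). Both calls were lost without replicate 1 or 2 of Emo-24h, at adjusted p-values of 0.113 to 0.122, the former also without replicate 1 of SAP-24h (0.0888) and the latter without replicate 2 or 3 of DEX-24h (0.0515 and 0.0645). Without replicate 3 of Emo-24h the changes were -2.66 and -2.70.
Ccnd1, the cyclin D of G1, was lower in DEX-6h (15.43 to 29.95 FPKM) than in SAP-6h (55.02 to 65.25 FPKM), at -1.36 (standard error 0.256, adjusted p = 0.0112), and than in Sham-6h, at -1.14 (adjusted p = 0.0071). It was higher in Emo-6h than in DEX-6h, at 1.31 (adjusted p = 0.00851). These 3 calls were lost without replicate 1 of DEX-6h, at adjusted p-values of 0.0528 to 0.093, and the first also without replicate 2 or 3 of SAP-6h (0.0702 and 0.0608). The fold change moved little in the latter 2 fits, to -1.34 and -1.33, and to -1.12 without replicate 1 of DEX-6h. Myc, a driver of cell growth, was higher in SAP-24h (17.79, 20.2 and 65.24 FPKM in ascending order) than in Sham-24h (11.94 to 14.35 FPKM), at 1.58 (standard error 0.331, adjusted p = 0.00434), and lower in Emo-24h than in SAP-24h, at -1.53 (adjusted p = 0.00838). Replicate 1 of SAP-24h, the highest library, carried both calls. Without it Myc was at 0.65 (adjusted p = 0.0484) and -0.60 (adjusted p = 0.0737), below the 2-fold limit. The second was also lost without replicate 2 of Emo-24h (adjusted p = 0.0523). In these comparisons, 1 of the 44 members was a DEG in DEX-6h vs Sham-6h and in Emo-24h vs DEX-24h each, and 0 were in the others.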

How the data were processed

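Polyadenylated RNA of rat lung was sequenced from directional libraries. The authors aligned the reads with TopHat2 to an Ensembl rat genome, and bcl2fastq and edgeR are also named in the submitters' processing notes, without versions. The deposited tables held counts of reads per gene, not normalized, and FPKM values that the authors computed per gene. All 30 columns of counts and of FPKM were assigned to samples by name, and groups came from the labels.

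Counts were tested with edgeR 4.0.16 (R 4.3.3, limma 3.58.1) by the quasi-likelihood test after TMM scaling, in 1 model of 10 groups with 20 residual degrees of freedom. Genes entered with at least 10 counts in enough libraries for a group of 3, scaled to library size, and 15 in total. This left 15934 of 22914 genes, over which p-values were adjusted by Benjamini-Hochberg. Calls required a change of 2-fold or more besides an adjusted p under 0.05. Values per library are FPKM, and they were compared for overlap without a test. Library totals were 16813949 to 34692306 counts. The edgeR test was checked on simulated counts for SAP-24h vs Sham-24h only, drawn with dispersions fitted to these data. The comparisons over time, their average and the interactions were not simulated. The alternatives were RLE scaling, no filter, a replicate block, DESeq2 1.42.0, a model of the compared groups, other thresholds, log2(FPKM + 1) or log2(FPKM + 0.1), and each library left out. For the medians and for Cdkn1a, Ccnd1, Myc, Ccnd3, Gmnn, Gadd45b and Gadd45g, leaving out libraries was added after the values were seen.

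Values per library were given for 22 genes fixed by name and for the 3 with the largest called change in each comparison. The remaining members were given by fold change, and Cdca8, Melk and Prc1 also by range. The members and lists were chosen with earlier results of these data known. The average over the 5 treatments was added after values had been seen. Promoters came from RefSeq (GRCr8) and were searched in Python 3.11.15.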

Additional observations from a re-analysis of the deposited data

How the results depend on the processing

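Each called member kept its direction under the alternatives run, whereas medians between treatments changed sign without single libraries, as given with them (SAP-6h vs Sham-6h, SAP-24h vs Con-24h, DEX-6h vs SAP-6h, Emo-6h vs SAP-6h, Emo-6h vs Sham-6h and Sham-6h vs Con-6h among them). With an unadjusted p and 2-fold, the counts for 24 against 6 hours were 20 in Sham (3.26% of all genes), 30 in Con (3.4%), 23 in SAP (6.72%) and 17 in DEX (9.36%). Against 2.85% to 8.78% of all genes, they were 1 in SAP-6h vs Sham-6h, Emo-6h vs SAP-6h, Emo-6h vs Sham-6h, Emo-6h vs DEX-6h and the interaction of SAP and Sham with time, 2 in Sham-24h vs Con-24h, DEX-24h vs Sham-24h and the interaction of Emo and SAP, and 3 in DEX-6h vs Sham-6h and Emo-24h vs DEX-24h. With an adjusted p and no fold limit they were 2 in SAP-24h vs Con-24h, 2 in Sham-24h vs Con-24h and 1 in Emo-6h vs DEX-6h. Over time they were 0 in Sham and Con, 3 in SAP, 11 in DEX, 26 in Emo and 37 in the average. The share of all genes under this rule is not given for the single treatments over time. DESeq2 gave 10 in Sham, 22 in Con and 9 in SAP over time, 1 in Sham-24h vs Con-24h and 2 in DEX-24h vs Sham-24h. With the compared groups alone, DEX-6h vs Sham-6h had 0 and DEX-24h vs Sham-24h 1, and the average over treatments, which needs all groups, had no value. Without the filter, SAP over time had 1. The share of all genes is not given for the compared groups alone or without the filter, so these counts are not set against a background. The cause of these differences was not tested.

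With a replicate block, SAP-24h vs SAP-6h had 1 called member instead of 2, and Racgap1 had an adjusted p of 0.0562. Samples of the same number shared only the number: their deviations correlated with a median r of -0.00868 over 135 pairs, against 0.0101 over 270 pairs of different numbers.

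Leaving out 1 library gave 0 to 2 called members in Sham over time, 0 to 0 in Con, 0 to 1 in SAP, 3 to 14 in DEX, 10 to 26 in Emo and 25 to 27 in their average. It gave 0 to 4 in DEX-6h vs Sham-6h and 0 to 1 in Emo-24h vs DEX-24h, SAP-24h vs Con-24h, DEX-24h vs SAP-24h and Emo-6h vs DEX-6h. Here and above, the share of all genes is not given for fits with 1 library left out. The shares printed belong to the full model. On the log2(FPKM + 1) scale the medians over time were -0.54 in Sham, -0.40 in DEX, -0.80 in Con, -0.57 in SAP, -0.60 in Emo and -0.59 in the average. Ccne2 and Ttk had the fewest reads, 26 at the median, and a limit from depth on their tests was not tested.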
